A study of Mus musculus with 47 samples.

Results

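The genes described are 30 members of the pathway that makes cholesterol and of the machinery that senses and moves it, taken from the 20320 genes of a mouse liver RNA sequencing table by gene symbol. All 30 were found, and all 30 passed the filter on low counts that left 16650 genes for testing. They comprise 9 genes of the mevalonate arm, 3 of the squalene and lanosterol steps, 8 that turn lanosterol into cholesterol, 4 of sterol sensing, 5 of uptake and transport within the cell, and the retinol dehydrogenase Rdh11. The table holds 47 libraries of polyadenylated RNA from whole liver. Mice were of the inbred strain NZO/HlLtJ, of CAST/EiJ or of C57BL/6J. All were labelled wild type and untreated, and males and females of each ate a diet with 44% fat plus fiber or with 10% fat plus fiber. The diets began at 6 weeks of age and livers were taken at 15 weeks, and the study's design text describes the diets as high fat, high sugar against control. There are 12 combinations of strain, sex and diet with 4 libraries each, apart from the 10% fat males of CAST/EiJ, which have 3. NZO/HlLtJ is an obesity-prone strain, CAST/EiJ is derived from wild mice, and C57BL/6J is the common laboratory strain.

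Cholesterol is built from acetyl-CoA through mevalonate, isoprenoid diphosphates, squalene and lanosterol, and the liver is a main site of this synthesis. When the membrane of the endoplasmic reticulum is poor in sterol, Scap carries the transcription factor encoded by Srebf2 to the Golgi for cleavage, and the freed fragment raises transcription of most enzymes of the pathway. When sterol is plentiful, the Insig1 and Insig2 proteins hold Scap back. The series title names genotype-by-diet interactions, so the comparisons are between diets within a strain, between strains on a diet, and between the sexes.

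Promoter windows of members that differ in how they behaved are shown first, from RefSeq sequence of build GRCm38.p6. Each runs from 250 bases before to 50 bases after an annotated start, 5′ to 3′ on the gene's own strand. Hmgcs1, the cytosolic HMG-CoA synthase (chr13:119690101-119690400, plus strand), Idi1, the isopentenyl diphosphate isomerase (chr13:8885356-8885655, plus strand), and Cyp51, the lanosterol demethylase (chr5:4104648-4104947, minus strand), were low in CAST/EiJ livers. Insig2 (chr1:121332540-121332839, minus strand, the most upstream of its 3 windows) was high there. Capitals mark CCAAT, the box bound by NF-Y, or its reverse complement, and in Hmgcs1 also TCACNCCAC, the core of a sterol regulatory element.
Hmgcs1: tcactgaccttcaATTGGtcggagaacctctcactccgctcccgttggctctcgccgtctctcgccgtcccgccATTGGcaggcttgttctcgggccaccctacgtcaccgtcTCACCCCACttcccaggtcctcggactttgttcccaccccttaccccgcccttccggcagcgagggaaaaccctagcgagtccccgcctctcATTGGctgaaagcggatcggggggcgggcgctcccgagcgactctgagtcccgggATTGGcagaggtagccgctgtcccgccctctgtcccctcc
Idi1: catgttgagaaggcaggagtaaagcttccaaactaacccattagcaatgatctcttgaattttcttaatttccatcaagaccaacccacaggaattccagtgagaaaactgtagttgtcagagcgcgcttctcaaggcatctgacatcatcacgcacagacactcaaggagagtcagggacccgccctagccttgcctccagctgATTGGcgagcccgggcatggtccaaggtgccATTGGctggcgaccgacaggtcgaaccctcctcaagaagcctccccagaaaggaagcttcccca
Cyp51: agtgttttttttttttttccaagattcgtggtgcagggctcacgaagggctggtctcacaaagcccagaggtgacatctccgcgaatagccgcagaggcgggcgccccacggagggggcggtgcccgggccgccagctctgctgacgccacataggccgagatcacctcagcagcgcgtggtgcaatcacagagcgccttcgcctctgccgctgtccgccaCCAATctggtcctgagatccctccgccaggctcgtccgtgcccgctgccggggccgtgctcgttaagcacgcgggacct
Insig2: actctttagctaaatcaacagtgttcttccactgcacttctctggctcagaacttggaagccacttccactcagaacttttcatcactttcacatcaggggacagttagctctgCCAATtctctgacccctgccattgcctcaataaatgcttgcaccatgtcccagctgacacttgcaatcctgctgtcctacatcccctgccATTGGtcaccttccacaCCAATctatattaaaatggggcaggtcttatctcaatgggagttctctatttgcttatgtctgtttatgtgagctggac

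The table of promoters held 25 of the 30 members, in 32 windows, and both strands were searched. Sqle, Fdps, Fdft1, Stard4 and Npc1 had no window. Only exact matches were sought, so variants of the sterol element were not counted. The sterol element TCACNCCAC was found in 1 of the 32 member windows, or 3.12%, that of Hmgcs1 at position -137 from the start, against 1.24% of the 32851 mouse windows of the same length. CCAAT was found in 22 of the 32 member windows, or 68.8%, against 37.4% of all mouse windows. The printed Hmgcs1 window holds 4 such boxes and the printed Insig2 window holds 3, while the other 2 Insig2 windows hold 0. The element in Hmgcs1 overlaps none of its CCAAT boxes. A match is a description of these letters and was not tested as a site.

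Levels are given as CPM, the usual counts-per-million unit, after TMM scaling of each library, and differences as log2 fold changes with their standard error (SE). A gene is said to be called, or to have risen or fallen, where the adjusted p of edgeR's quasi-likelihood test over all 16650 genes was under 0.05. Shares of all tested genes follow that same rule. None is given for an unadjusted p, for DESeq2 or limma, or for fits with covariates or fewer libraries. Counts of members under those therefore have no background beside them. Libraries held 21609240 to 47780231 counts. Whether every library is from its own mouse is not stated in the labels, and p-values therefore reflect library-to-library spread, which may be technical. In bulk liver RNA, fewer cells of a type and less RNA per cell cannot be told apart. All 10 hepatocyte markers were detected, at a summed 85100 to 151000 CPM in NZO/HlLtJ, 65400 to 142000 CPM in CAST/EiJ and 102000 to 130000 CPM in C57BL/6J libraries. Pancreatic acinar markers (6 of 11 tested) summed to 2.42 to 13.1 CPM in NZO/HlLtJ, 0.671 to 528 CPM in CAST/EiJ and 2.33 to 571 CPM in C57BL/6J libraries, and 5 libraries of CAST/EiJ or C57BL/6J had the acinar gene Cpa1 at 20 CPM or more. A pair of libraries, called below those that stood apart, lay lowest against their groups in the cholesterol genes. The NZO/HlLtJ male 44% fat library numbered 1, which is also the shallowest, had a median deviation from its group of -1.27 on the log2 scale over the 20 synthesis enzymes, and the C57BL/6J female 44% fat library numbered 1, which is among those with high Cpa1 at 82 CPM, had -1.08. Libraries outside this pair deviated too. The NZO/HlLtJ male 44% fat library numbered 3, of the same group as the shallow library, had 0.97. The C57BL/6J male 10% fat library numbered 2, with Cpa1 at 41.4 CPM, had -0.72. Values without the library of the pair concerned are given beside the Sqle and Tm7sf2 diet and sex differences within NZO/HlLtJ and within C57BL/6J. They are also given beside counts that it moved, but not beside every difference between strains.

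The heat map of all members in all libraries shows the main pattern by eye. The CAST/EiJ block was low for most enzymes and for Rdh11, lowest in females on 44% fat, while Insig2 and Mylip were high there. Within the NZO/HlLtJ block, males on 44% fat were lower than the other groups for many enzymes.

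**Figure D1:**
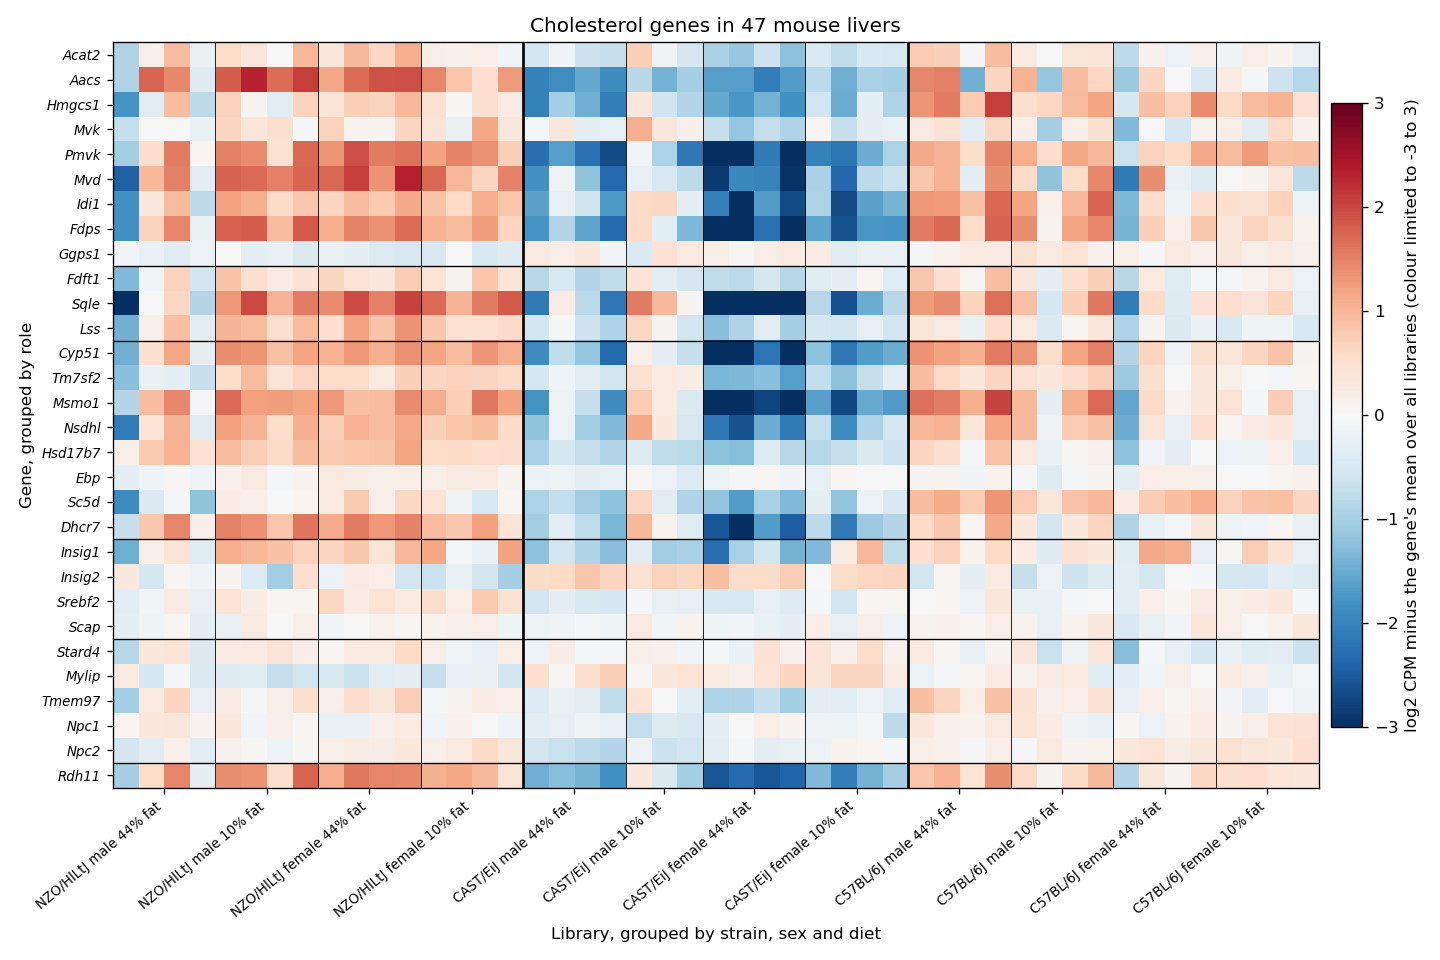
Level of each of the 30 genes (rows, grouped by role) in each of the 47 libraries (columns, grouped by strain, sex and diet), as log2 CPM minus the gene's mean over all libraries, with colour limited to -3 to 3. Sqle, Cyp51, Msmo1 and Rdh11 are deep blue in the 4 CAST/EiJ females on 44% fat, and Insig2 is red across CAST/EiJ.

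Per kilobase of exon, the order of the members differed by strain. In NZO/HlLtJ livers Insig1 led with a median of 109 CPM per kilobase on 44% fat and 158 on 10% fat. In CAST/EiJ livers Insig2 led with a median of 149 CPM per kilobase on 44% fat and 148 on 10% fat, and Ebp, a sterol isomerase, came next with 67.3 and 75.0. In C57BL/6J livers Insig1 led with 121 on 44% fat and 99.2 on 10% fat, followed by the sterol desaturase Sc5d with 92.1 and 84.9. At the other end, Ggps1, which makes geranylgeranyl diphosphate for the isoprenoid side branch, was lowest in each of these strain and diet groups except CAST/EiJ on 44% fat, where Sqle was lowest at 0.823 CPM per kilobase, next to Ggps1 at 1.23. Neighbours in these orders mostly overlapped: Insig1 and Insig2 of NZO/HlLtJ on 44% fat ranged from 29.6 to 164 and from 64.7 to 120 CPM per kilobase. Insig2 of CAST/EiJ on 44% fat, at 141 to 182, did not overlap the next gene, Ebp, at 61.8 to 76.8.

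On the 44% diet, a set of cholesterol synthesis genes fell in CAST/EiJ livers, 1 fell in NZO/HlLtJ livers and none passed the test in C57BL/6J livers by edgeR, DESeq2 or limma. In CAST/EiJ, 9 of the 30 members fell and 0 rose, against 0.396% of all tested genes that fell and 0.895% called in either direction. The 9 were Pmvk of the mevalonate arm, Sqle, the lanosterol-side enzymes Cyp51, Tm7sf2, Msmo1, Nsdhl, Sc5d and Dhcr7, and Rdh11. The median log2 fold change of the 30 members was -0.65, with 26 of 30 below 0, against a median of 0 over all tested genes.

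Sqle encodes squalene epoxidase, a rate-limiting enzyme of the pathway (chr15:59315077-59331192). In CAST/EiJ females it had 1.59, 2.36, 2.85 and 1.74 CPM on 44% fat, against 15.5, 4.41, 9.87 and 15.45 CPM on 10% fat. In CAST/EiJ males it had 6.29, 33.05, 15.9 and 6.28 CPM on 44% fat, against 81.6, 54.35 and 29.5 CPM on 10% fat. Female groups did not overlap, and in males a single library on 44% fat lay within the range of the 10% group. The log2 fold change over both sexes was -2.13 (SE 0.42, adjusted p = 0.0116), the largest fall among the members.

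Cyp51 showed no overlap between diets in either sex of CAST/EiJ. In females it had 4.93, 5.75, 13.7 and 7.11 CPM on 44% fat, against 26.9, 14.2, 19.7 and 22.4 CPM on 10% fat. In males it had 17.0, 37.3, 28.2 and 12.8 CPM on 44% fat, against 70.0, 51.9 and 39.3 CPM on 10% fat. The log2 fold change was -1.29 (SE 0.27, adjusted p = 0.015).

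Tm7sf2, a sterol reductase of the step after Cyp51 (chr19:6062821-6068373), also separated the diets in both sexes, narrowly in females. CAST/EiJ females had 26.4, 26.6, 28.4 and 21.6 CPM on 44% fat, against 40.9, 28.9, 41.8 and 54.4 CPM on 10% fat. CAST/EiJ males had 47.3, 62.55, 54.8 and 46.2 CPM on 44% fat, against 93.9, 83.4 and 78.95 CPM on 10% fat. Its log2 fold change was -0.69 (SE 0.15, adjusted p = 0.0191).

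Rdh11 encodes a retinol dehydrogenase and was also low on 44% fat. In CAST/EiJ females it had 6.97, 8.34, 7.08 and 8.03 CPM on 44% fat, against 16.6, 9.88, 15.6 and 20.9 CPM on 10% fat. In males of that strain it had 15.3, 17.2, 15.8 and 11.9 CPM on 44% fat, against 51.9, 31.05 and 20.6 CPM on 10% fat. The diets did not overlap in either sex, and the log2 fold change was -1.13 (SE 0.26, adjusted p = 0.0238).

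Msmo1, a methylsterol oxidase, had 2.01 to 5.75 CPM in CAST/EiJ females on 44% fat, against 5.84 to 13.5 CPM on 10% fat, with no overlap. In CAST/EiJ males it had 10.5 to 34.9 CPM on 44% fat, against 29.0 to 66.45 CPM on 10% fat, with overlap (log2 fold change over both sexes -1.49, SE 0.34, adjusted p = 0.0235). Dhcr7, a reductase at the end of the pathway, had 4.29 to 16.4 CPM in females on 44% fat, against 11.95 to 30.5 CPM on 10% fat. In males Dhcr7 had 20.2 to 42.3 CPM on 44% fat, against 40.5 to 102.6 CPM on 10% fat, and the diets overlapped in each sex (-1.23, SE 0.27, adjusted p = 0.0203). Pmvk, phosphomevalonate kinase, Nsdhl, a sterol dehydrogenase, and Sc5d fell by 1.39, 1.22 and 0.85 on the log2 scale, with adjusted p from 0.0287 to 0.0422.

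Hmgcs1 and Fdps, the synthase of farnesyl diphosphate, missed the threshold in CAST/EiJ with log2 fold changes of -1.08 (adjusted p = 0.0519) and -1.22 (adjusted p = 0.0768). Hmgcs1 had 33.5, 67.0, 49.1 and 32.4 CPM in CAST/EiJ males on 44% fat, against 172.7, 89.4 and 73.6 CPM on 10% fat, with no overlap. In females it had 47.3, 40.8, 51.3 and 39.0 CPM on 44% fat, against 91.2, 48.6, 111.0 and 73.0 CPM on 10% fat, with overlap. Idi1 had a log2 fold change of -1.02 (SE 0.32, adjusted p = 0.121). By DESeq2, 13 members fell in CAST/EiJ, among them Hmgcs1, Idi1, Fdps and Tmem97, with no share of all tested genes given for that method.

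No sensing gene was called by edgeR between diets in CAST/EiJ. Log2 fold changes were -0.72 for Insig1 (SE 0.30), 0.14 for Insig2 (SE 0.16), -0.29 for Srebf2 (SE 0.10) and -0.20 for Scap (SE 0.09). Among uptake and transport genes Tmem97, an endoplasmic reticulum protein that binds Npc1, had -0.53 (adjusted p = 0.0692), and Stard4, Mylip, Npc1 and Npc2 lay between -0.24 and 0.27.

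The count in CAST/EiJ rests on few libraries. Without the male 10% fat library numbered 1, which had the highest Sqle of the strain, 0 members were called by edgeR, and Sqle then had -1.93 with adjusted p = 0.0538. Other single libraries moved it to 5 (without female 44% fat 2), 14 (without female 10% fat 2), 2 (without female 10% fat 4) and 4 (without male 44% fat 4). Within the 3 runs of consecutive identifiers in the sample titles, which hold 16, 16 and 15 libraries, the log2 fold change of Sqle was -3.49, -0.96 and -2.55, and 26, 23 and 25 of the 30 members were below 0, but 0 were called in any run alone. With the run as a covariate 7 were called.

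In NZO/HlLtJ livers 1 member was called, Tm7sf2, which fell, against 2.14% of all tested genes that fell and 5.64% called in either direction. A count of 1 of the 30 members is near that background. NZO/HlLtJ males had 28.8, 59.15, 56.5 and 42.3 CPM on 44% fat, against 100.5, 131.9, 88.75 and 104.6 CPM on 10% fat, with no overlap. NZO/HlLtJ females had 99.55, 100.4, 83.1 and 112.3 CPM on 44% fat, against 106.5, 111.0, 106.5 and 101.6 CPM on 10% fat, and the groups overlapped. The log2 fold change over both sexes was -0.65 (SE 0.15, adjusted p = 0.00505), and the call held in each of 47 refits that left out a library, with -0.56 without the shallow male library. The count of called members was 2 without male 44% fat 3. In run 1 alone, the only run with both diets in both sexes of this strain, it was -0.76 and not called. Vps51 overlaps Tm7sf2 on the same strand, so reads of the 2 genes may have been divided between them.

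Within the sexes, NZO/HlLtJ males had a median member log2 fold change of -0.70 with 26 of 30 below 0, and NZO/HlLtJ females had 0.20 with 22 of 30 above 0. Only Tm7sf2 in males was called (-1.19, SE 0.21, adjusted p = 0.00087), against 1.12% of all tested genes that fell and 2.68% called in either direction in males and 0.486% called in females, where 0 members were called by edgeR and 2 had an unadjusted p under 0.05. Sqle had 2.75, 27.9, 42.5 and 15.1 CPM in NZO/HlLtJ males on 44% fat, against 68.1, 109.6, 56.6 and 81.0 CPM on 10% fat. These groups did not overlap, but Sqle missed the threshold at -1.82 (SE 0.55, adjusted p = 0.065). Without the shallow male library the median over the members was -0.45 with 27 of 30 below 0, and Sqle had -1.47 (adjusted p = 0.176) and Tm7sf2 -1.02 (adjusted p = 0.00894). Without the C57BL/6J female library that stood apart, Sqle was called in NZO/HlLtJ males at -1.83 (adjusted p = 0.0402). In NZO/HlLtJ females Sqle had 74.1, 107.7, 78.9 and 113.6 CPM on 44% fat, against 90.35, 56.4, 81.8 and 98.7 CPM on 10% fat. Hepatocyte markers summed to 85100 to 98000 CPM in NZO/HlLtJ males on 44% fat, against 105000 to 129000 CPM in those on 10% fat, and their part in these values was not tested.

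The difference of the diet effect between the sexes was called by edgeR for 0 members in NZO/HlLtJ, where 0.018% of all tested genes were called by the same rule. At an unadjusted p under 0.05 by edgeR there were 13 members, and DESeq2 and limma called 0. For Sqle the difference was -2.02 (SE 0.76, adjusted p = 0.544), or -1.66 without the shallow male library, and for Tm7sf2 -1.08 (SE 0.29, adjusted p = 0.223), or -0.91 without that library. In CAST/EiJ 0 members were called (0 at an unadjusted p under 0.05, 0 by DESeq2 and by limma), as were 0 of all tested genes. Within single sexes of CAST/EiJ 0 members were called by edgeR in females or in males, against 0.198% of all tested genes in females and 0.012% in males. In each of these sexes 16 members had an unadjusted p under 0.05, a looser rule for which no share of all tested genes is given. In C57BL/6J 0 were called for the sex by diet difference (1 at an unadjusted p under 0.05, 0 by DESeq2 and by limma), against 0.0841% of all tested genes. Within its single sexes 0 members were called by edgeR in females (0 at an unadjusted p under 0.05) or in males (1), against 0.102% and 0.042% of all tested genes. In runs 2 and 3 each sex of NZO/HlLtJ was present on 1 diet only, so run and the diet effect of a sex cannot be told apart there.

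In C57BL/6J livers 0 of the 30 members were called by edgeR, with 0 at an unadjusted p under 0.05 and 0 by DESeq2 and by limma, against 0.991% of all tested genes. The median member log2 fold change was 0.06, with 20 of 30 above 0, and the range was -0.15 to 0.34. By sex, the median was 0.24 in C57BL/6J males with 28 of 30 above 0. In C57BL/6J females it was -0.10 with 22 of 30 below 0. Without the female library that stood apart, it was 0.07 in females with 13 of 30 below 0. Sqle had 67.8, 74.6, 44.1 and 86.9 CPM in males on 44% fat, against 50.7, 19.4, 45.8 and 83.7 CPM on 10% fat. In C57BL/6J females it had 6.42, 41.5, 21.2 and 37.3 CPM on 44% fat, against 38.8, 36.6, 43.6 and 23.9 CPM on 10% fat. The groups overlapped in both sexes, and the log2 fold change was 0.02 (SE 0.38), or 0.18 without the female library numbered 1. The direction varied by run: the median member log2 fold change was -0.34, 0.35 and 0.15 in runs 1, 2 and 3 alone, with 27, 4 and 8 of 30 members below 0.

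**Figure D2:**
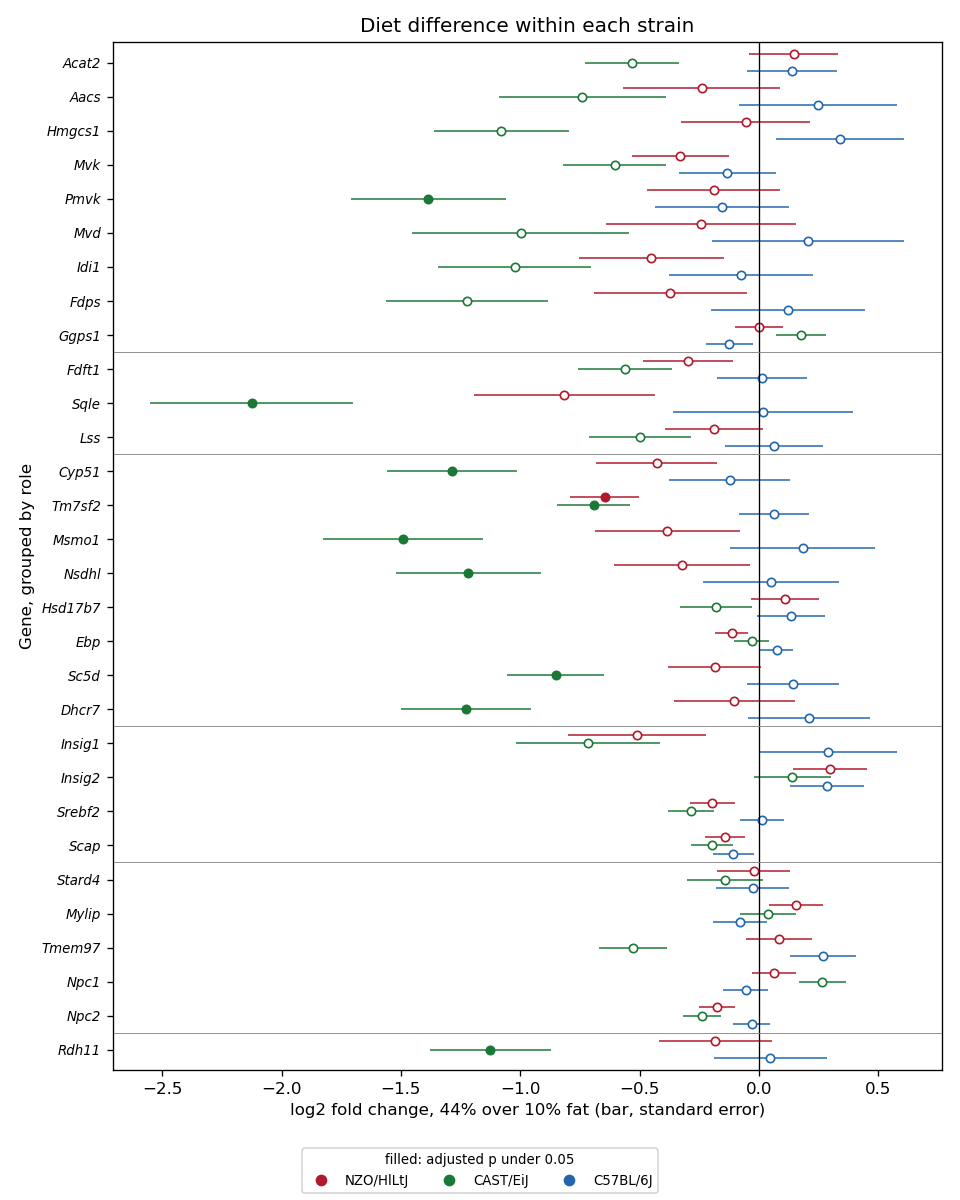
Log2 fold change of each gene between 44% and 10% fat within NZO/HlLtJ, CAST/EiJ and C57BL/6J, averaged over the sexes, with its standard error; filled points have an adjusted p under 0.05. The 9 filled CAST/EiJ points lie between -2.13 and -0.69, Tm7sf2 is the filled NZO/HlLtJ point at -0.65, and no C57BL/6J point is filled.

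The plot of diet differences shows CAST/EiJ lowest of the 3 strains for Sqle, Pmvk, Msmo1 and Fdps. A difference in diet effect between strains was not called for these genes by edgeR. A joint test for unequal diet effects over the 3 strains called 0 members by edgeR, against 0.048% of all tested genes by the same rule. At an unadjusted p under 0.05 by edgeR there were 14 members, and limma called 0. DESeq2 called 4 members, Tm7sf2, Msmo1, Dhcr7 and Tmem97, with no share of all tested genes given for that method. The smallest adjusted p by edgeR was that of Tmem97 at 0.135, and 1 member was called without either of the libraries that stood apart, each left out alone. For Sqle the diet effect in CAST/EiJ minus that in C57BL/6J was -2.14 (SE 0.57, adjusted p = 0.164).

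**Figure D3:**
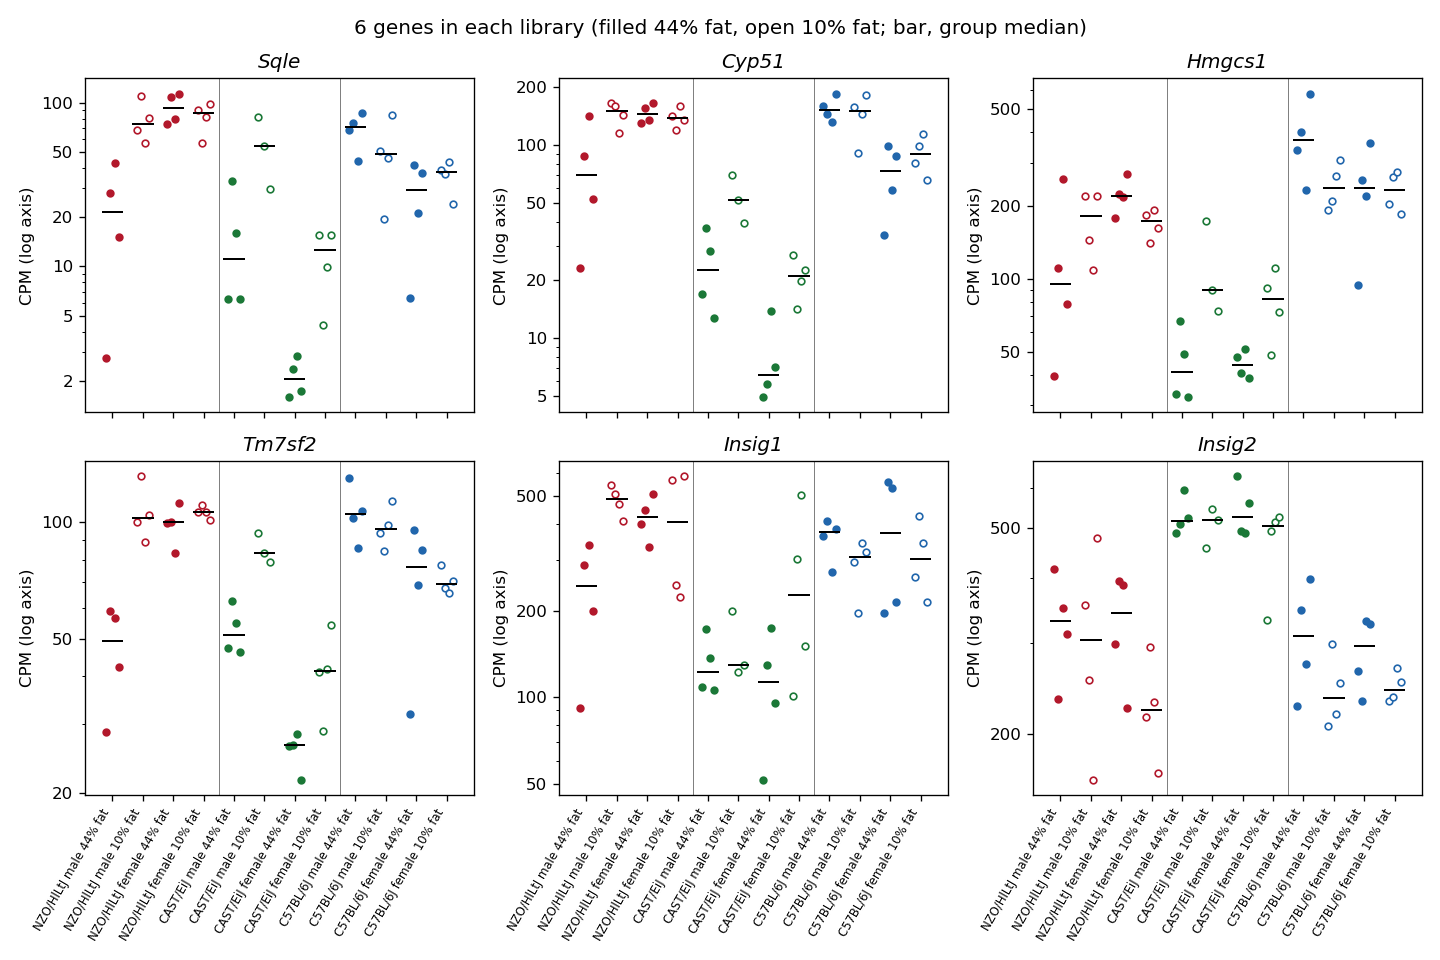
CPM of 6 genes in each library (log axis) by strain, sex and diet, with filled points for 44% fat, open points for 10% fat and a bar at the group median. CAST/EiJ females on 44% fat have Sqle between 1.59 and 2.85 CPM, while Insig2 in CAST/EiJ lies between 332.1 and 632.1 CPM.

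More members were called between strains than between diets, as were more of all tested genes, and CAST/EiJ was the strain with low enzymes. On 44% fat, CAST/EiJ livers had 24 members lower and 2 higher than C57BL/6J livers, against 30.8% of all tested genes lower and 27.5% higher. On 10% fat, 15 members were lower and 3 higher, against 28.3% lower and 27.3% higher. The median member log2 fold change was -1.12 on 44% fat and -0.53 on 10% fat, against -0.02 over all genes on each diet. The same C57BL/6J and CAST/EiJ libraries enter the diet comparisons above.

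In the mevalonate arm, Pmvk ranged from 1.27 to 5.79 CPM with a median of 3.33 in CAST/EiJ on 44% fat, against 11.55 to 51.4 CPM with a median of 34.0 in C57BL/6J. The groups did not overlap (log2 fold change -3.43, SE 0.32, adjusted p = 1.65e-11), which is the lowest fold change of any member in this comparison. On 10% fat the ranges were 3.96 to 17.4 CPM with a median of 6.56 in CAST/EiJ and 26.6 to 44.4 CPM with a median of 36.1 in C57BL/6J (-2.20, SE 0.32, adjusted p = 2.63e-07).

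Hmgcs1, at the entry of the pathway, ranged from 32.4 to 67.0 CPM with a median of 44.05 in CAST/EiJ on 44% fat, against 94.0 to 578.5 CPM with a median of 296.8 in C57BL/6J (-2.74, SE 0.29, adjusted p = 2.42e-10). These Hmgcs1 groups did not overlap. Idi1 ranged from 6.24 to 54.4 CPM with a median of 19.9 in CAST/EiJ on 44% fat, against 25.1 to 211.3 CPM with a median of 106.5 in C57BL/6J, with overlap (-2.30, SE 0.32, adjusted p = 1.27e-07), and had -1.35 on 10% fat, called. Fdps had -3.13 on 44% fat and -1.78 on 10% fat, and Mvd, the diphosphate decarboxylase, had -2.28 and -1.08, all called. Aacs, which activates acetoacetate, had -2.20 and -1.21, called on both diets, and Acat2, the cytosolic thiolase, had -0.99 on 44% fat, called, and -0.32 on 10% fat, not called. Mevalonate kinase, Mvk, was not called on either diet. Ggps1 was called lower on 10% fat (-0.28, adjusted p = 0.023) and had 0.03 on 44% fat.

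Among the later steps, Cyp51 ranged from 4.93 to 37.3 CPM with a median of 13.2 in CAST/EiJ on 44% fat, against 34.4 to 184.8 CPM with a median of 115.7 in C57BL/6J. The ranges met only at the C57BL/6J female library that stood apart. The log2 fold change was -2.93 (SE 0.28, adjusted p = 1.79e-11) on 44% fat and -1.76 (SE 0.28, adjusted p = 1.3e-06) on 10% fat. Sqle had -2.90 (SE 0.42, adjusted p = 2.91e-07) on 44% fat but -0.76 (SE 0.40, adjusted p = 0.107) on 10% fat. Sc5d ranged from 74.4 to 142.5 CPM with a median of 109.8 in CAST/EiJ on 44% fat, against 275.8 to 589.1 CPM with a median of 448.1 in C57BL/6J, with no overlap (-2.03, SE 0.20, adjusted p = 4.62e-11). All 8 lanosterol-side genes were called lower on 44% fat, from -3.09 for Msmo1 to -0.20 for Ebp, and 5 of them on 10% fat.

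Sensing and transport genes did not share 1 direction. Insig2 ranged from 489 to 632.1 CPM with a median of 517.1 in CAST/EiJ on 44% fat, against 226.4 to 398.3 CPM with a median of 299.6 in C57BL/6J. All CAST/EiJ libraries lay above all C57BL/6J libraries on each diet, with log2 fold changes of 0.84 (SE 0.16, adjusted p = 1.48e-05) on 44% fat and 0.99 (SE 0.16, adjusted p = 1.83e-06) on 10% fat. Insig1, itself a target of the sterol-regulated factor, ranged from 51.8 to 173.3 CPM with a median of 119.1 in CAST/EiJ on 44% fat, against 196.6 to 557.3 CPM with a median of 373.7 in C57BL/6J, with no overlap (-1.59, SE 0.30, adjusted p = 1.97e-05).

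Insig1 on 10% fat ranged from 101.1 to 504.1 CPM in CAST/EiJ and from 195.5 to 424.2 CPM in C57BL/6J, and was not called (-0.58, adjusted p = 0.102). Srebf2 ranged from 34.2 to 43.0 CPM with a median of 37.0 in CAST/EiJ on 44% fat, against 39.96 to 63.9 CPM with a median of 52.8 in C57BL/6J. It was lower there (-0.47, SE 0.09, adjusted p = 3.8e-05) and not called on 10% fat (-0.17), and Scap was not called on either diet. Mylip, a ubiquitin ligase that promotes breakdown of lipoprotein receptors, was higher in CAST/EiJ on both diets (0.43, adjusted p = 0.00122 on 44% fat, and 0.31, adjusted p = 0.0218 on 10% fat). Its libraries ranged from 11.45 to 18.1 CPM in CAST/EiJ on 44% fat, against 8.93 to 13.05 CPM in C57BL/6J. Npc2, which moves cholesterol out of lysosomes, was lower on both diets (-0.69 on 44% fat, adjusted p = 3.17e-10, and -0.49 on 10% fat), as was its partner Npc1 (-0.25 and -0.57). The sterol carrier Stard4 ranged from 122.4 to 190.2 CPM in CAST/EiJ on 10% fat, against 81.7 to 166.6 CPM in C57BL/6J, with 0.37 (adjusted p = 0.0467), a call that was lost in 20 of 47 refits that left out a library (highest adjusted p 0.132), and was not called on 44% fat (0.25).

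**Figure D4:**
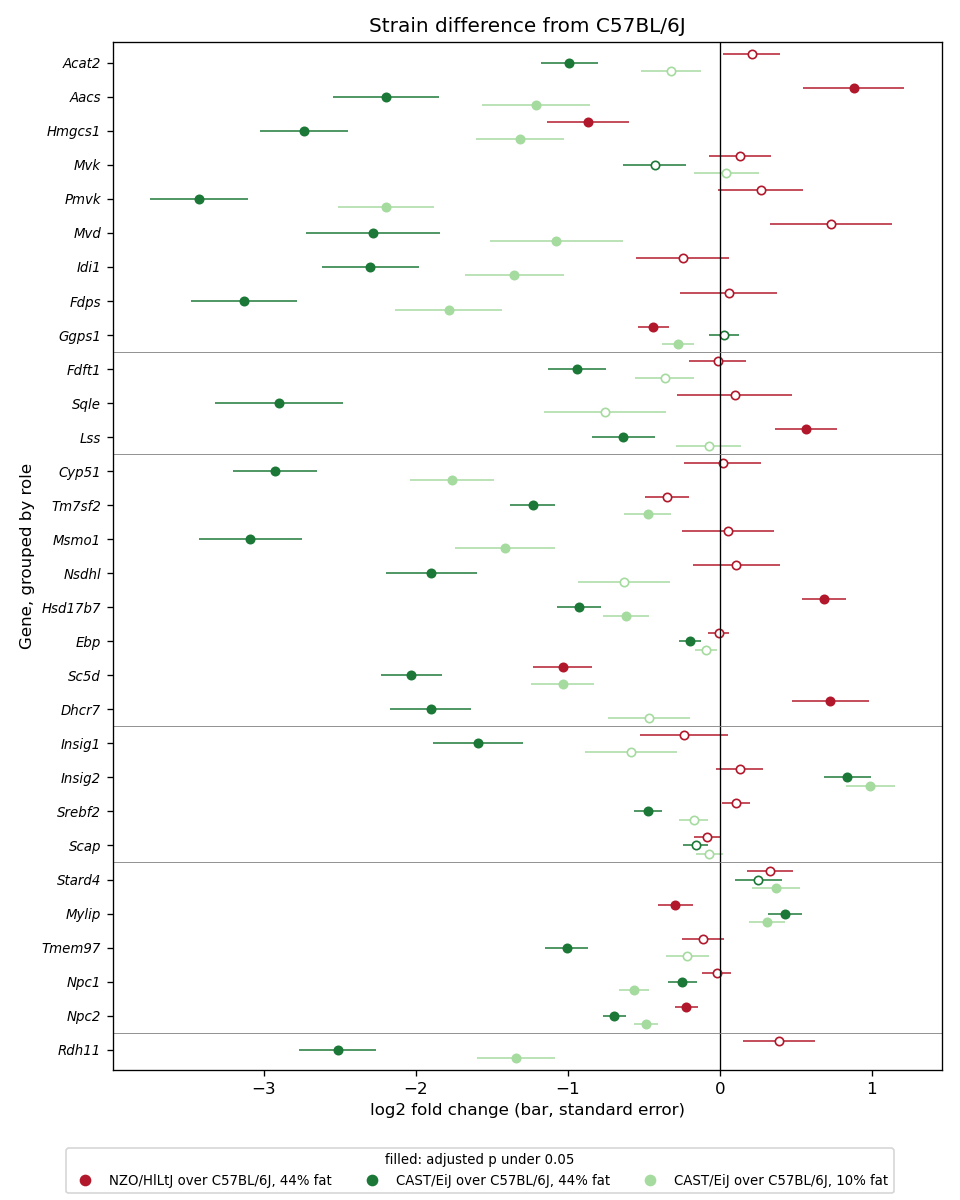
Log2 fold change of each gene from C57BL/6J, for NZO/HlLtJ on 44% fat, CAST/EiJ on 44% fat and CAST/EiJ on 10% fat, averaged over the sexes, with its standard error; filled points have an adjusted p under 0.05. CAST/EiJ points on 44% fat reach -3.43 for Pmvk, and Insig2 stands at 0.84 and 0.99 on the other side of 0.

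The plot of strain differences sets the CAST/EiJ values beside those of NZO/HlLtJ. NZO/HlLtJ livers had 4 members higher and 5 lower than C57BL/6J livers on 44% fat, against 18% of all tested genes higher and 16.8% lower. As shares of the members, both counts on 44% fat were near or below that background. The members were thus not called more often than all tested genes on that diet. On 10% fat, 9 members were higher and 3 lower, against 19.4% of all tested genes higher and 16.1% lower. Hsd17b7, a sterol reductase, was higher on both diets, with 61.0 to 121.7 CPM and a median of 94.8 in NZO/HlLtJ on 44% fat, against 22.8 to 97.6 CPM and a median of 52.9 in C57BL/6J (0.69, SE 0.14, adjusted p = 0.000206). Sc5d was lower on both diets, with 62.7 to 407.4 CPM and a median of 247.4 in NZO/HlLtJ on 44% fat, against 275.8 to 589.1 CPM and a median of 448.1 in C57BL/6J (-1.03, SE 0.20, adjusted p = 5.58e-05).

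Aacs, Lss and Dhcr7 were higher in NZO/HlLtJ than in C57BL/6J on both diets, and Ggps1 and Mylip were lower on both. Lss, the lanosterol synthase, had 0.57 on 44% fat and 0.82 on 10% fat. Ggps1 ranged from 3.58 to 4.73 CPM in NZO/HlLtJ on 44% fat, against 4.88 to 6.22 CPM in C57BL/6J, with no overlap (-0.44, SE 0.10, adjusted p = 0.000584). Hmgcs1 was lower in NZO/HlLtJ on 44% fat (-0.87, SE 0.27, adjusted p = 0.0107) and had -0.47 on 10% fat, not called. Without the 5 libraries with high Cpa1, 7 members were called on 44% fat and 8 on 10% fat.

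Set against CAST/EiJ, NZO/HlLtJ livers had 25 members higher and 3 lower on 44% fat, against 30.9% of all tested genes higher and 28.2% lower. On 10% fat, 22 were higher and 3 lower, against 28.2% higher and 25.7% lower. Insig2 and Mylip were among the 3 lower genes on each diet, and Ggps1 was the other. Pmvk had 3.70 (SE 0.32, adjusted p = 2.9e-12) and Rdh11 2.90 (SE 0.26, adjusted p = 3.68e-12) on 44% fat. Rdh11 ranged from 20.97 to 124.6 CPM in NZO/HlLtJ and from 6.97 to 17.2 CPM in CAST/EiJ on that diet, with no overlap.

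Markers of immune cells moved with strain beside these values. All 6 Kupffer cell markers, and 5 of 6 T and B cell markers, were lower in CAST/EiJ than in C57BL/6J on each diet. Kupffer cell markers summed to 128 to 345 CPM in NZO/HlLtJ, 83.1 to 278 CPM in CAST/EiJ and 168 to 308 CPM in C57BL/6J libraries, and T and B cell markers to 1.17 to 3.75, 0.494 to 1.51 and 1.53 to 4.40 CPM in the same order of strains. Single hepatocyte markers were divided between CAST/EiJ and C57BL/6J, with 3 higher and 3 lower on 44% fat. Their sum was lower in CAST/EiJ males than in C57BL/6J males on both diets, without overlap. It was 65400 to 85700 against 105000 to 114000 CPM on 44% fat, and 76000 to 97400 against 102000 to 117000 CPM on 10% fat. In females the strains overlapped on both diets. The part of these in the strain differences was not tested.

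A score of clock gene levels, the standardized log2 level of Dbp and Ciart minus that of Arntl and Npas2, moved with strain. Its median was 0.44 in NZO/HlLtJ, 2.20 in CAST/EiJ and -1.05 in C57BL/6J on 44% fat, and -1.12, 1.15 and -2.35 in the same strains on 10% fat. With the score as a covariate, CAST/EiJ and C57BL/6J differed in 27 members on 44% fat and 20 on 10% fat, and 11 members were called between diets in CAST/EiJ. With the run of identifiers as a covariate, CAST/EiJ and C57BL/6J differed in 26 members on 44% fat and 17 on 10% fat. The build named in the submitters' processing notes is GRCm38, the genome of C57BL/6J. Whether CAST/EiJ and NZO/HlLtJ reads were aligned to their own strain's sequence is not given in the sources used here, and its part in the strain differences was not tested.

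Averaged over the diets, called enzymes were lower in males of NZO/HlLtJ and higher in males of the other strains. In NZO/HlLtJ the means of Sqle, Cyp51 and Tm7sf2 were apart on 44% fat and close on 10% fat, although the difference of the diet effect between the sexes was not called. In NZO/HlLtJ 6 members were lower in males and 0 higher, against 9.31% of all tested genes lower and 7.94% higher. Without the NZO/HlLtJ male library that stood apart, 3 members were called, and Tm7sf2 was the only enzyme among them. In CAST/EiJ 12 were higher in males and 2 lower, against 16.1% higher and 14.2% lower. In C57BL/6J 9 were higher in males and 1 lower, against 8.1% higher and 8.7% lower. The median member log2 fold change, male over female, was -0.29 in NZO/HlLtJ, 0.38 in CAST/EiJ and 0.48 in C57BL/6J.

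Sqle in NZO/HlLtJ averaged 22.1 ± 17.1 CPM in males and 93.6 ± 20 CPM in females on 44% fat, where the sexes did not overlap, and 78.8 ± 22.8 CPM in males and 81.8 ± 18.3 CPM in females on 10% fat, where they did (SD, n = 4 each). Over both diets the log2 fold change was -1.06 (SE 0.38, adjusted p = 0.0488), a call that was lost in 32 of 47 refits that left out a library (highest adjusted p 0.0985), with -0.88 (adjusted p = 0.0873) without the shallow male library. Cyp51 in NZO/HlLtJ, not called, averaged 76.2 CPM in males and 146.1 CPM in females on 44% fat. The sexes overlapped there, at 23 to 141.6 CPM in males and 130.7 to 164.2 CPM in females, and the lowest male was the shallow library. On 10% fat Cyp51 averaged 145.5 CPM in males and 138.7 CPM in females.

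In CAST/EiJ the sexes did not overlap for Sqle on either diet. It had 6.28 to 33.05 CPM in males and 1.59 to 2.85 CPM in females on 44% fat, and 29.5 to 81.6 CPM in males and 4.41 to 15.5 CPM in females on 10% fat (2.56, SE 0.43, adjusted p = 1.44e-05). In C57BL/6J Sqle had 44.1 to 86.9 CPM in males and 6.42 to 41.5 CPM in females on 44% fat, without overlap, and 19.4 to 83.7 CPM in males and 23.9 to 43.6 CPM in females on 10% fat, with overlap. It was not called there (0.92, SE 0.38, adjusted p = 0.0941), with 0.76 without the female library that stood apart.

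Msmo1 had 2.37 in CAST/EiJ (SE 0.34, adjusted p = 1.04e-06) and 1.16 in C57BL/6J (SE 0.31, adjusted p = 0.00706), and -0.18 in NZO/HlLtJ, not called. Averaged over the diets, Tm7sf2 was lower in males of NZO/HlLtJ (-0.54, SE 0.15, adjusted p = 0.00745) and higher in males of CAST/EiJ (1.04, SE 0.15, adjusted p = 1.25e-06) and of C57BL/6J (0.54, SE 0.15, adjusted p = 0.00832). In NZO/HlLtJ Tm7sf2 averaged 46.7 ± 14 CPM in males and 98.8 ± 12 CPM in females on 44% fat, and 106.4 CPM in each sex on 10% fat (SD, n = 4 each). Without the library of that strain that stood apart, the Tm7sf2 values were -0.45 (adjusted p = 0.0235) in NZO/HlLtJ and 0.41 (adjusted p = 0.0147) in C57BL/6J. Npc2 was lower in males of each strain, by 0.42 in NZO/HlLtJ, 0.47 in CAST/EiJ and 0.26 in C57BL/6J on the log2 scale, all called. In NZO/HlLtJ Npc2 ranged from 33.3 to 54.1 CPM in males and from 53.96 to 72.2 CPM in females. All 6 Kupffer cell markers were lower in males of NZO/HlLtJ and of CAST/EiJ, as were 2 of 6 in C57BL/6J, and their part in the sex differences was not tested. Hepatocyte markers summed to 85100 to 129000 CPM in males and 108000 to 151000 CPM in females of NZO/HlLtJ, to 65400 to 97400 CPM in males and 102000 to 142000 CPM in females of CAST/EiJ, and to 102000 to 117000 CPM in males and 105000 to 130000 CPM in females of C57BL/6J. The sexes of CAST/EiJ did not overlap in this sum, and its part in the sex differences was not tested.

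Srebf2 was lower in males in NZO/HlLtJ, ranging from 40.4 to 67.9 CPM with a median of 52.7 in males and from 58.2 to 87.1 CPM with a median of 68.7 in females (-0.40, SE 0.09, adjusted p = 0.00193), and was not called in the other strains. Without the NZO/HlLtJ male library that stood apart, 3 members were called between the sexes of NZO/HlLtJ, which were Tm7sf2, Srebf2 and Npc2, and the same number without male 10% fat 3. In C57BL/6J the count was 7 without the female library that stood apart, 6 without male 10% fat 4, and 6 with the clock score as a covariate. With the run of identifiers as a covariate, 5, 14 and 10 members were called between the sexes of NZO/HlLtJ, CAST/EiJ and C57BL/6J. The clock score had medians of 0.44 in males and -1.19 in females of NZO/HlLtJ, 1.30 in males and 2.29 in females of CAST/EiJ, and -0.77 in males and -1.80 in females of C57BL/6J. Beyond its use as a covariate, its part in the sex differences was not tested.

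**Figure D5:**
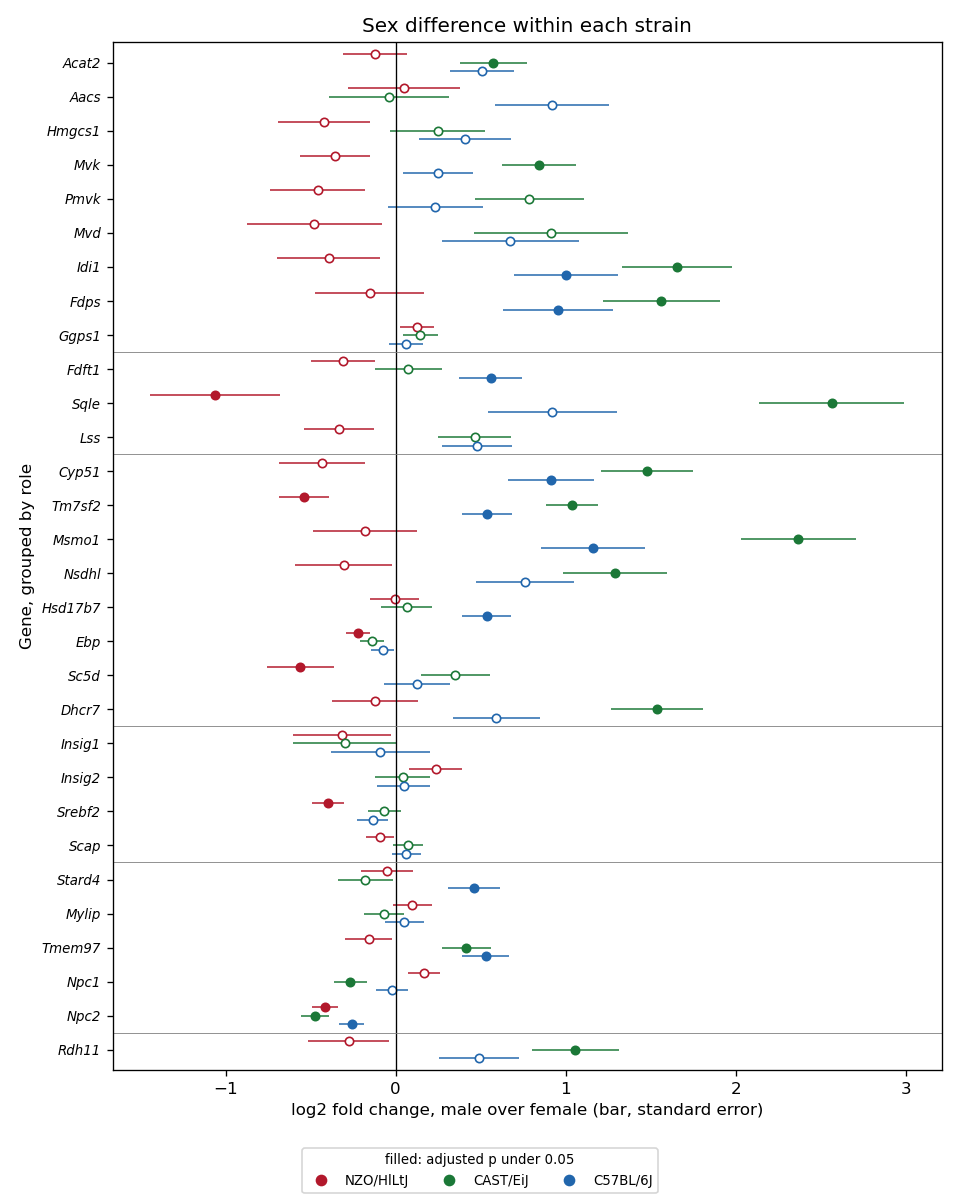
Log2 fold change of each gene between males and females within NZO/HlLtJ, CAST/EiJ and C57BL/6J, averaged over the diets, with its standard error; filled points have an adjusted p under 0.05. Sqle stands at -1.06 in NZO/HlLtJ and at 2.56 in CAST/EiJ.

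The plot of sex differences led to a test, chosen after the data were seen, of whether the male to female difference itself differed between strains. Between NZO/HlLtJ and CAST/EiJ it differed for 14 members, 13 of them more negative in NZO/HlLtJ, against 7.2% of all tested genes more negative and 6.45% more positive. Sqle had -3.63 (SE 0.57, adjusted p = 2.19e-05), Tm7sf2 -1.58 (SE 0.21, adjusted p = 9.13e-07) and Msmo1 -2.55 (SE 0.45, adjusted p = 0.000131). Without the NZO/HlLtJ male library that stood apart the count was 12, and Sqle had -3.45. Between NZO/HlLtJ and C57BL/6J 1 member differed, Tm7sf2 (-1.07, SE 0.21, adjusted p = 0.00405), against 0.24% of all tested genes more negative, with 4 by DESeq2 and by limma, 6 without NZO/HlLtJ male 44% fat 3 and 2 without C57BL/6J male 10% fat 2. Between CAST/EiJ and C57BL/6J 0 differed by edgeR, against 10.5% of all tested genes by the same rule. At an unadjusted p under 0.05 by edgeR there were 6 members, and DESeq2 called 3 and limma 0.

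Within groups the enzymes varied together from library to library. After removing the group mean, the median Pearson r over the 190 pairs of the 20 synthesis enzymes was 0.75 across 47 libraries, with a range of -0.42 to 0.97. The libraries share their scaling and depth, so these values describe and do not test. Over the 6 pairs of the 4 sensing genes the median was 0.02. Within-group spread was widest for Mvd (SD 0.91 on the log2 scale) and Sqle (0.86) and narrowest for Ebp (0.14) and Npc2 (0.15).

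Sqle tracked Cyp51 with Pearson r of 0.92 and Spearman rho of 0.89, and r was 0.88 without the 2 libraries farthest from the median, which are the NZO/HlLtJ male and the C57BL/6J female library that stood apart. Mvd and Nsdhl also had r of 0.92, Fdps 0.91 and Idi1 0.90. Insig1 had 0.49, which was 0.34 without those 2 libraries, and Insig2 -0.19, Ggps1 -0.17 and Mylip -0.42. Among 10374 genes with enough signal, 12 of the 20 most like Sqle were members. The genes outside the list with the highest r were Mmab at 0.85, Pnpla3 and Cyb5r3 at 0.84, Fasn at 0.82, and Slc25a1, Chrna4 and Thrsp at 0.80, with Ugt1a5 at 0.78 and Tecr at 0.77 also among the 10 highest.

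Other genes of the pathway and its neighbours were counted in lists that were chosen with earlier results known. Between diets, the list of other sterol synthesis and response genes had 1 of 11 tested called in CAST/EiJ, Por, the electron donor of microsomal cytochromes, which rose (0.83, SE 0.21, adjusted p = 0.0484), and 0 in NZO/HlLtJ and C57BL/6J. Of 14 fatty acid synthesis genes 0 were called between diets in any strain, with medians of 0.48 in NZO/HlLtJ, -0.43 in CAST/EiJ and 0.30 in C57BL/6J. Of 18 cholesterol disposal genes, 1 rose on 44% fat in NZO/HlLtJ, Cyp8b1 of bile acid synthesis (0.69, adjusted p = 0.048), and 0 were called in CAST/EiJ and C57BL/6J. Of 11 genes of the sterol sensor machinery 1 rose in NZO/HlLtJ, Pgrmc1 (0.24, adjusted p = 0.00661), and of 12 isoprenoid side branch genes 1 rose and 1 fell there, Coq2 and Rabggtb. Over all tested genes 5.64% were called between diets in NZO/HlLtJ, 0.895% in CAST/EiJ and 0.991% in C57BL/6J, so counts of 1 in lists of this size in NZO/HlLtJ are near that background.

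Between CAST/EiJ and C57BL/6J on 44% fat the lists went separate ways. Fatty acid synthesis had 8 of 14 lower and 2 higher, with Me1, the malic enzyme, at -2.67 (SE 0.31, adjusted p = 2.95e-09) and Scd1, the stearoyl-CoA desaturase, at -2.64 (SE 0.39, adjusted p = 3.57e-07) among the lower, and Mlxipl among the higher at 0.59. The other sterol genes had 6 of 11 lower and 2 higher, and the higher were Hsd17b12 and Por. Cholesterol disposal had 8 of 18 higher and 2 lower, with Cyp7b1 of bile acid synthesis at 4.28 (SE 0.34, adjusted p = 1.77e-13) and Nr1h3, which encodes a liver X receptor, at 0.46 (SE 0.05, adjusted p = 9.82e-10). The sensor machinery had 8 of 11 higher and 2 lower, led by the ubiquitin ligase Rnf139 at 0.72 (SE 0.07, adjusted p = 9.32e-12). Isoprenoid side branches had 7 of 12 higher and 2 lower. These shares stand against 27.5% of all tested genes higher and 30.8% lower.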

How the data were processed

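Polyadenylated liver RNA was sequenced as 100 bp paired-end libraries. The deposited table holds expected counts per gene, of which 20.3% are not whole; these were rounded. The authors also deposited variance-stabilized values on a log2 scale. Per the submitters' processing notes the build was GRCm38 and DESeq2 was used. The aligner, the counter, its use of strand and any strain-specific sequence are not stated in the labels or file headers. Genes were filtered with edgeR's filterByExpr over the 12 groups, and 16650 of 20320 were kept. Counts were scaled by TMM and tested with edgeR 4.0.16 (robust quasi-likelihood, 12 group means, 35 residual degrees of freedom, R 4.3.3), with Benjamini-Hochberg adjustment over all genes tested. log2 CPM used a prior count of 2. Libraries held 21609240 to 47780231 counts. No pair of libraries in a group differed by as little as counting noise (lowest chi-square per gene 24.6).

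Groups come from the labels. The alternatives were DESeq2 1.42.0, limma 3.58.1 on the deposited log2 values, RLE scaling, no filter, at least 1 CPM in at least 4 libraries, the run of identifiers or the clock score as a covariate, each run or strain alone, no library with Cpa1 of at least 20 CPM, and each of 47 libraries left out. Within-sex and sex differences without the libraries that stood apart were added after seeing the data. On simulated data of 16650 genes, 50 to 57% of genes changed 1.5-fold and 69 to 77% of those changed 2-fold were recovered in the diet comparisons. Of the calls, 4.8 to 5.93% were of genes not changed. The 200 changed genes were drawn from all tested genes and simulated independently of each other. Members varied together, with a within-group SD of up to 0.91 on the log2 scale, so recovery for them was not measured. Lead members (Hmgcs1, Idi1, Sqle, Cyp51, Insig1, Insig2, Srebf2, Stard4, Mylip, Npc2, and the 3 called members with the smallest p in a comparison) and up to 3 called genes per other list are given values; further members were chosen after their values were seen. Members and lists were chosen with earlier results of these data known. Of the members, 10 overlap another annotated gene, where reads may have been divided. Figures were drawn with matplotlib 3.10.9.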

Additional observations from a re-analysis of the deposited data

Results flagged for a closer look

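Of 198 combinations of a lead member and a group of 4 libraries, 5 had a library far from the rest. Its gap to the nearest other was above Dixon's critical share of the group's range. Chance gives about 1 such combination in 20, and the combinations reuse the same libraries. Insig2 had 332.1 CPM in CAST/EiJ female 10% fat 1, against 495.4 to 526.3 CPM in the others. Ggps1 had 4.967 CPM in NZO/HlLtJ female 10% fat 2, against 3.603 to 3.822 CPM. Hsd17b7 had 121.7 CPM in NZO/HlLtJ female 44% fat 4, against 92.59 to 97.16 CPM. Pmvk had 44.38 CPM in C57BL/6J female 10% fat 2, against 34.05 to 35.43 CPM. Msmo1 had 126.8 CPM in NZO/HlLtJ male 10% fat 1, against 88.45 to 92.71 CPM.

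The male to female difference itself differed between strains, by edgeR's test of that difference with adjusted p over all genes. Between NZO/HlLtJ and C57BL/6J the log2 value of Tm7sf2 was -1.07 (adjusted p = 0.00405). Between NZO/HlLtJ and CAST/EiJ, genes of the mevalonate arm had -1.20 (Mvk), -1.25 (Pmvk), -2.05 (Idi1) and -1.72 (Fdps). Later steps had -3.63 (Sqle), -1.91 (Cyp51), -1.58 (Tm7sf2), -2.55 (Msmo1), -1.59 (Nsdhl), -0.91 (Sc5d) and -1.66 (Dhcr7). The others were -0.57 for Tmem97, 0.43 for Npc1 and -1.33 for Rdh11, with adjusted p from 9.13e-07 to 0.0488 over the 14.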

How the results depend on the processing

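Between diets, no log2 fold change of a called lead member changed sign under any alternative run. Among lead members not called, 48 values changed sign in C57BL/6J, 23 in NZO/HlLtJ and 6 in CAST/EiJ, over all alternatives. Signs were counted in this way for the diet comparisons only. Counts of members called between diets in CAST/EiJ were 4 with the strain alone and 0, 0 and 0 in runs 1, 2 and 3 alone, where fewer libraries were fitted. For NZO/HlLtJ they were 2 with the clock score and 0 in run 1 alone; runs 2 and 3 could not be fitted for it. The joint test had 4 by DESeq2, and male against female in C57BL/6J had 6 with the clock score. For the sex difference between CAST/EiJ and C57BL/6J the counts were 2 with the stricter filter, 2 with the clock score, 1 without the high Cpa1 libraries and 3 by DESeq2. Between NZO/HlLtJ and C57BL/6J they were 2 with the clock score, 4 by limma and 4 by DESeq2. The cause was not tested. The sex difference tests were chosen after seeing the data.

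Leaving out 1 library gave 0 to 14 members between diets in CAST/EiJ, 1 to 2 in NZO/HlLtJ and 0 to 0 in C57BL/6J, 0 to 1 in the joint test, and 0 to 0 for sex by diet in each strain. On 10% fat it gave 23 to 27 for NZO/HlLtJ against CAST/EiJ, 8 to 13 for NZO/HlLtJ against C57BL/6J and 15 to 20 for CAST/EiJ against C57BL/6J. On 44% fat these were 26 to 28, 6 to 11 and 25 to 28. Male against female gave 3 to 9 in NZO/HlLtJ, 12 to 16 in CAST/EiJ and 6 to 13 in C57BL/6J. The sex difference gave 10 to 18 for NZO/HlLtJ against CAST/EiJ, 1 to 6 for NZO/HlLtJ against C57BL/6J (6 without NZO/HlLtJ male 44% fat 3) and 0 to 3 for CAST/EiJ against C57BL/6J (3 without C57BL/6J female 44% fat 1). No paired analysis was possible because the labels give no replicate numbers that groups share.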
